A study of Neurospora crassa with 12 samples.

Results

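The genes described here encode actin, its filament-binding partners, the polarisome and myosins of the filamentous fungus Neurospora crassa. They were taken by locus tag and number 8 of the 10592 genes in the count table: actin (act, NCU04173), tropomyosin (tpm-1, NCU01204), fimbrin (fim, NCU03992), the formin gene bni-1 (NCU01431), spa-2 (NCU03115), bud-6 (NCU08468) and the myosin genes myo-1 (NCU02111) and myo-2 (NCU00551). All 8 passed the filter on low counts, which kept 8330 genes for testing. Conidia of strain FGSC2489 (mat A) germinated at 37 °C on Bird medium, a minimal medium, covered with cellophane, under continuous white light, according to the growth protocol and the study's methods, whereas the source label of the samples names PDA. RNA sequencing was done at 4 stages with 3 libraries each: fresh conidia (stage 1), the onset of polar growth (stage 2), doubling of the longest axis, here called germ tube extension (stage 3), and the first hyphal branch (stage 4). The sample titles give 15, 60, 120 and 240 min for these stages and the time point tags give 15, 120, 240 and 360 min, in the same order, so that stages are named by number. The study's methods give the titles' times for Bird medium and the times of the tags for PDA. All libraries are of the same strain, a stage was assigned when most but not all spores had reached it, and each library pooled tissue from several plates of one collection. The sources do not say whether the 3 libraries came from separate conidial harvests. P-values therefore set differences between stages against the spread between these libraries, which need not be the spread between separate harvests.

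A conidium of N. crassa first grows in all directions and then fixes a site from which a germ tube emerges. Growth at the tip depends on actin filaments, along which vesicles are carried, and on endocytic patches of branched and bundled actin behind the tip. The polarisome is a protein complex of the apex, in which a formin nucleates unbranched filaments, SPA-2 acts as a scaffold and BUD-6, as known from yeast, binds actin and stimulates the formin. Class I myosins act in endocytosis, whereas class II myosin forms the contractile ring of septa.

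Levels are given in CPM, counts per 1000000 counts of the library after scaling by TMM, a factor that corrects for differences in library composition. Total counts lay between 42996748 and 71990884 per library. Genes of ribosomal RNA took between 1.68% and 11.3% of the counts in 11 libraries and 37.9% in stage 3 replicate 2, which also had the lowest TMM factor (0.730). Results of stage 3 are therefore given without this library where it matters. The labels of stage 1 were checked with transcripts known from conidia. The hydrophobin gene eas stood at a mean of 11117 CPM in stage 1. It was at 58.5, 5.25 and 58.8 CPM in stages 2, 3 and 4. The genes con-6, con-8 and con-10 were likewise highest in stage 1, at 1047, 284 and 122 CPM. Like eas, they were lowest in stage 3 and higher again in stage 4. For con-6 the means were 21.1, 2.98 and 19.0 CPM in stages 2, 3 and 4. The check thus covers the label of stage 1 only, and the order of the later stages was not tested.

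All 8 genes differed among the stages in the joint edgeR test (adjusted p between 2.31e-10 for fim and 0.0199 for bni-1), as did 84.3% of all genes tested. For bni-1 this did not hold without stage 1 replicate 2 (adjusted p = 0.0959), without stage 1 replicate 3 (0.116) or with library totals in place of TMM (0.117). From fresh conidia to polar growth 7 of the 8 rose, against 39.4% of all genes tested, and 0 fell, against 37.9%. Their libraries did not overlap between the 2 stages, which held in this direction for 41% of all genes. The median log2 change of the 8 genes was 0.87, against 0.01 over all genes. Actin and its filament-binding partners had the largest changes, between 1.33 and 1.61 on the log2 scale, and bni-1 was the gene without a rise. In whole tissue, a change in the level of a transcript per cell cannot be told apart from a change in the share of cells that hold it.

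**Figure D1:**
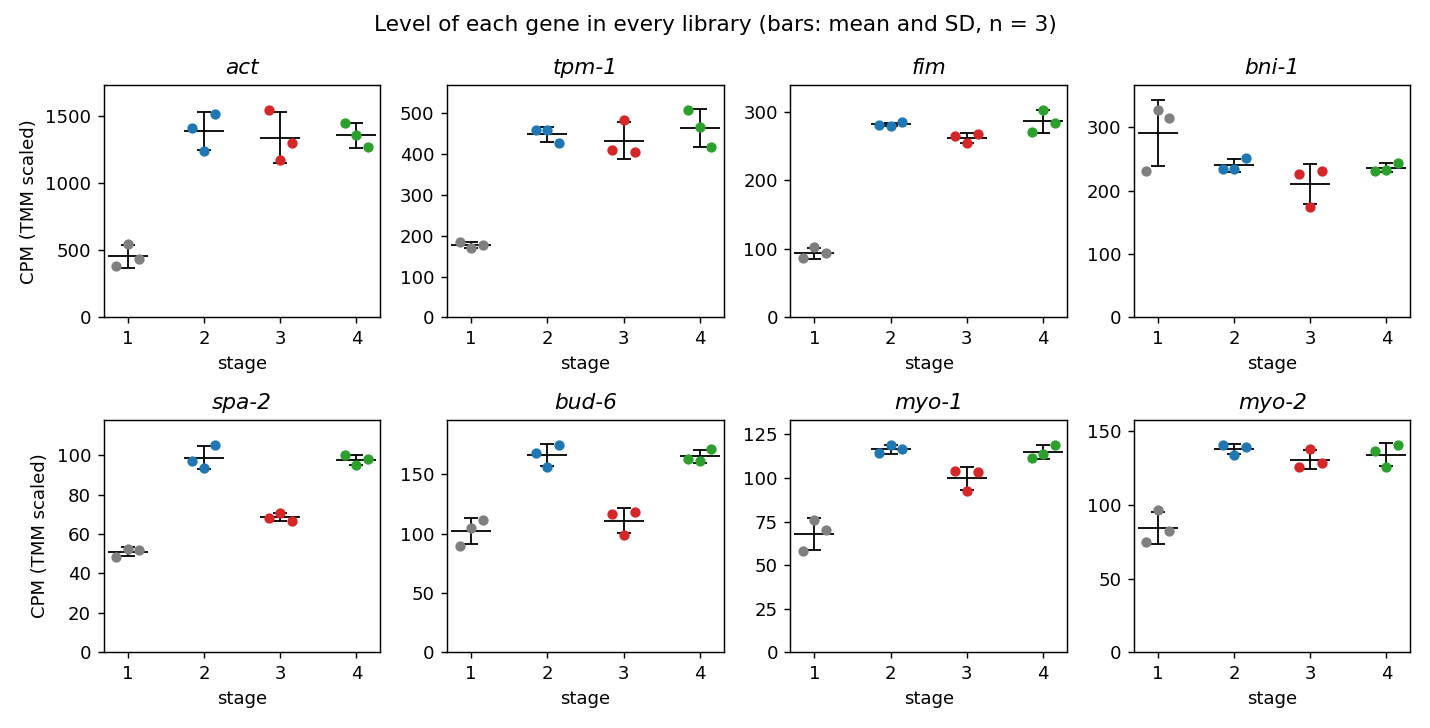
Level of the 8 genes in CPM on the y axis for the 4 stages on the x axis, with points for single libraries and bars for the mean and SD of 3 libraries. For act the stage 1 libraries reach 549.6 CPM at most and all other libraries lie at 1176 CPM or above, whereas spa-2 and bud-6 are lower in stage 3 than in stages 2 and 4.

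Actin (act), the building block of the filaments, was the most abundant of the 8 transcripts. Its level was 384, 549.6 and 432 CPM in replicates 1 to 3 of stage 1 and 1413, 1236 and 1512 CPM in stage 2. It stood at 1546, 1176 and 1297 CPM in stage 3 and at 1446, 1355 and 1265 CPM in stage 4. The stage 1 libraries were low and the remaining 9 overlapped with each other. At the first step actin rose 3.05-fold (log2 change of 1.61 ± 0.13, SE; edgeR adjusted p = 8.05e-08). The 2 later steps gave log2 changes of -0.05 ± 0.13 and 0.02 ± 0.13 (adjusted p of 0.797 and 0.935), or 0.03 and -0.07 without stage 3 replicate 2.

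Tropomyosin, encoded by tpm-1, lies along unbranched actin filaments and stabilises them. Its transcript stood at 185, 169 and 177 CPM in stage 1 and at 457, 458 and 427 CPM in stage 2. It was at 408, 483 and 405 CPM in stage 3 and at 507, 464 and 416 CPM in stage 4. Again the 3 conidial libraries lay apart from the other 9, which overlapped. The log2 change from stage 1 to stage 2 was 1.33 ± 0.09 (edgeR adjusted p = 6.26e-09, 2.52-fold). The annotated span of tpm-1 shares 211 bases (13.4% of it) with NCU01203, whose level moved the other way, with means of 89.3 CPM in conidia and 40.5 CPM at polar growth.

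Fimbrin bundles actin filaments. The fim transcript stood at 86.1, 102 and 93.8 CPM in stage 1, at 280.4, 279.8 and 284.5 CPM in stage 2, at 265, 254 and 267 CPM in stage 3 and at 271, 303 and 284 CPM in stage 4. Its 3 libraries of stage 2 were the closest together of all the groups of the 8 genes (SD of 0.909% of the mean). The rise was 2.99-fold (log2 change of 1.58 ± 0.07, edgeR adjusted p = 9.34e-11). The later steps gave -0.10 and 0.12 (adjusted p of 0.252 and 0.164). The second of them passed without stage 1 replicate 1 (log2 change of 0.16, adjusted p = 0.0319).

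The formin gene bni-1 was the exception. Its level was 231, 328 and 314 CPM in stage 1, with replicate 1 below the other conidial libraries and inside the range of the later stages. It stood at 235.0, 233.7 and 251 CPM in stage 2, at 227, 174 and 230.5 CPM in stage 3 and at 231, 234 and 244 CPM in stage 4. All 3 libraries of stage 3 lay below those of stages 2 and 4, by little except in replicate 2. From stage 1 to stage 2 the log2 change was -0.28 ± 0.12 (edgeR adjusted p = 0.0540), which passed without stage 1 replicate 1 (-0.40, adjusted p = 0.00276) or without stage 3 replicate 2 (-0.26, adjusted p = 0.0317), and with DESeq2 (-0.33, adjusted p = 0.0123).

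Against stage 3, a comparison added after the values were seen, bni-1 was lower than in conidia by a log2 change of -0.47 ± 0.12 (edgeR adjusted p = 0.00346), and it stayed called with any single library left out (-0.63 to -0.34, highest adjusted p = 0.0230). A fall between these stages was called in 37.8% of all genes. Against stage 4 it was lower by -0.30 ± 0.12 (adjusted p = 0.0397). That call was lost without stage 1 replicate 2 (-0.19, adjusted p = 0.230) and without each of 8 others (stage 1 replicate 3, stage 3 replicate 1 and the 6 of stages 2 and 4), and with library totals in place of TMM (-0.24, adjusted p = 0.281). In none of the settings tried did bni-1 rise from stage 1 in its share of the counts, and levels per cell were not measured.

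SPA-2 is the scaffold of the polarisome. The spa-2 transcript was at 48.3, 52.5 and 51.9 CPM in stage 1 and at 97.2, 93.6 and 105 CPM in stage 2. It then stood at 68.3, 70.9 and 66.5 CPM in stage 3 and at 100.1, 95.1 and 98.0 CPM in stage 4. Stage 3 thus lay between the conidial libraries and those of stages 2 and 4, with no overlap on either side. The rise from stage 1 to stage 2 was 1.94-fold (log2 change of 0.96 ± 0.06, edgeR adjusted p = 3.38e-09). It was followed by a 1.44-fold fall to stage 3 (-0.53 ± 0.06, adjusted p = 1.32e-05) and a 1.43-fold rise to stage 4 (0.51 ± 0.06, adjusted p = 1.70e-05). In stage 3 the level was above that of conidia (0.43 ± 0.06, adjusted p = 1.31e-05), as called in this direction for 40.8% of all genes.

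BUD-6 works with the formin. Its transcript stood at 89.9, 104 and 111 CPM in stage 1, at 168, 156 and 175 CPM in stage 2, at 116, 98.5 and 118 CPM in stage 3 and at 163, 161 and 171 CPM in stage 4. Its stage 3 libraries overlapped with those of stage 1 and lay below all those of stages 2 and 4. The rise from stage 1 to stage 2 was 1.63-fold (log2 change of 0.71 ± 0.09, edgeR adjusted p = 5.14e-06). The fall to stage 3 was 1.50-fold (-0.58 ± 0.09, adjusted p = 0.000162), and the rise to stage 4 was 1.49-fold (0.57 ± 0.09, adjusted p = 0.000188). From stage 1 to stage 3 the log2 change was 0.12 ± 0.09 and was not called (edgeR adjusted p = 0.213, 95% interval -0.07 to 0.31). Without stage 3 replicate 2 it was 0.21 and was called (adjusted p = 0.0299).

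In the main edgeR fit, spa-2 and bud-6 were therefore the ones of the 8 genes called between stages 2 and 3. Both were lower, against 18.2% of all genes tested. Between stages 3 and 4 they were again the ones called, both higher, against 18.2% of all genes. With DESeq2, myo-1 was called as well at both steps (adjusted p of 0.0277 and 0.0433). None of the 8 was called higher in stage 3 than in stage 2 or lower in stage 4 than in stage 3, as 20.8% of all genes were at each step. A fall to stage 3 and a rise to stage 4, steps that share the stage 3 libraries, were both called in 16% of all genes. Libraries of stage 3 lay below all those of stage 2 for 5 of the 8 genes (26.6% of all genes) and below all those of stage 4 for the same number (25.4%), these being fim, bni-1, spa-2, bud-6 and myo-1. Without stage 3 replicate 2 the log2 changes were -0.55 and 0.54 for spa-2 (adjusted p of 3.73e-05 and 4.80e-05) and -0.51 and 0.50 for bud-6 (0.000502 and 0.000581). The gene next to spa-2, NCU03116, shares 54 bases with its annotated span and was at 100.2 CPM in stage 2 and 80.8 CPM in stage 3 (-0.31, adjusted p = 0.0160). Its part in the result for spa-2 was not tested, and the shared bases are 1.09% of the span of spa-2.

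The myosin genes rose at the first step and changed less later. For myo-1, which is listed without a symbol in the RefSeq table, the level was 58.2, 76.0 and 70.0 CPM in stage 1, 114, 119.1 and 116 CPM in stage 2, 104, 92.3 and 103 CPM in stage 3 and 111, 114 and 119.2 CPM in stage 4. Stage 3 lay between stage 1 and the other 2 stages without overlap. The log2 change from stage 1 to stage 2 was 0.78 ± 0.08 (edgeR adjusted p = 1.44e-06). The following steps gave -0.22 ± 0.08 (adjusted p = 0.0512) and 0.20 ± 0.08 (adjusted p = 0.0748). These values lie close to the threshold, which DESeq2 passed for both (adjusted p of 0.0277 and 0.0433). Leaving out single libraries moved the adjusted p from 0.00375 (without stage 1 replicate 1) to 0.153 (without stage 3 replicate 2) for the first and from 0.00637 to 0.209 (without the same libraries) for the second.

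The class II myosin gene myo-2 stood at 74.6, 96.3 and 82.3 CPM in stage 1 and at 140.5, 134 and 139 CPM in stage 2. It was at 126, 138 and 128 CPM in stage 3 and at 136, 125 and 140.8 CPM in stage 4. The last 3 stages overlapped. The rise was 1.63-fold (log2 change of 0.71 ± 0.08, edgeR adjusted p = 3.33e-06), and the later steps gave -0.08 and 0.04 (adjusted p of 0.502 and 0.759).

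**Figure D2:**
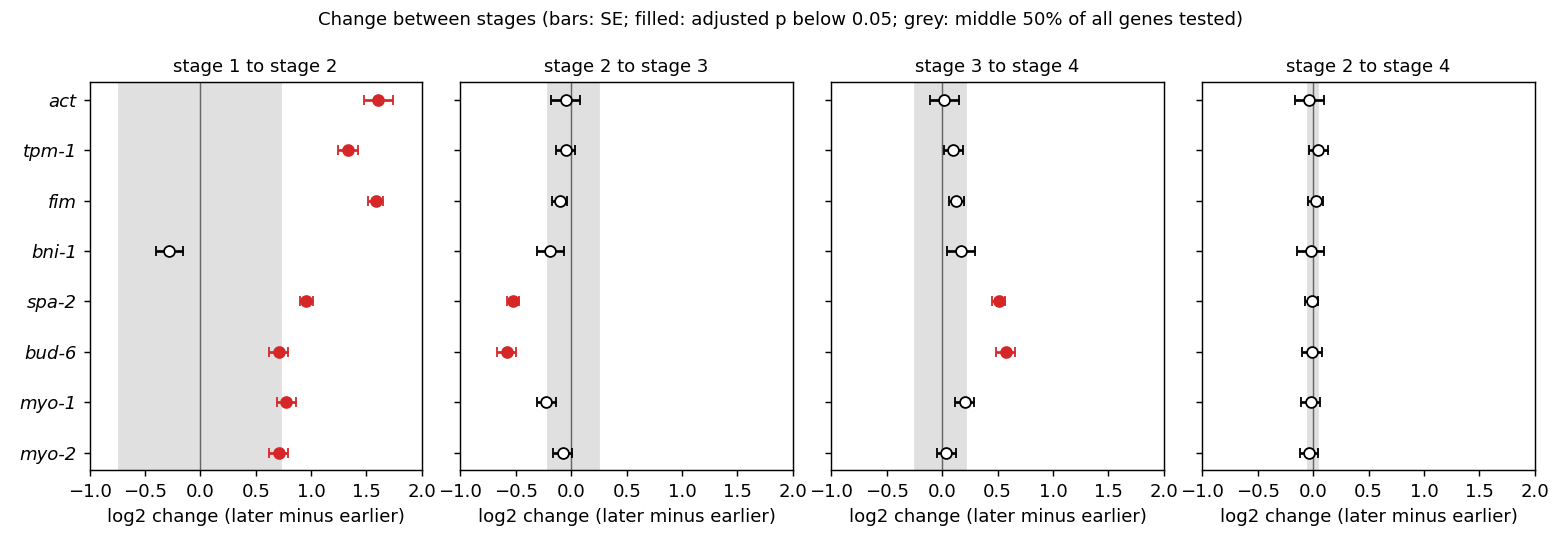
Log2 change of the 8 genes between stages on the x axis, later minus earlier stage, with bars for the SE, filled points for an edgeR adjusted p below 0.05 and a grey band for the middle 50% of all genes tested. From stage 1 to stage 2 the 7 rising genes lie between 0.71 and 1.61, spa-2 and bud-6 are filled in both middle panels, and no point is filled from stage 2 to stage 4.

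Over the whole course, stage 1 to stage 4, all 8 genes were called, against 77.7% of all genes tested, 7 of them higher (39.5% of all genes) and bni-1 lower (38.2%). The largest rise was that of fim (3.04-fold), and the 8 genes had a median log2 change of 0.85 against 0.01 over all genes. Between stages 2 and 4 edgeR called 0 of the 8 genes, as it called 0% of all genes tested. An unadjusted edgeR p below 0.05 was reached by 0 of the 8 and by 1.63% of all genes. That share is smaller than this threshold would pass with no change in any gene. DESeq2 also called 0 of the 8. The log2 changes there lay between -0.04 (myo-2) and 0.05 (tpm-1). Among the 8 genes the 95% intervals from stage 2 to stage 4 were widest for act (-0.31 to 0.25) and narrowest for spa-2 (-0.14 to 0.11). They rest on the spread within all 4 stages, including stages 1 and 3, and not on that of stages 2 and 4 alone. Changes within these intervals remain possible.

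Ratios of a pair of genes within a library do not depend on how libraries are scaled. They were used to ask which genes moved apart from actin, with an exact permutation test over all 369600 arrangements of the libraries into stages and adjustment over the 7 ratios. The ratio to act differed among the stages for 5 genes and not for tpm-1 (exact permutation p = 0.504, adjusted 0.588) or fim (p = 0.842, adjusted 0.842). The count of fim per count of act was 0.209 ± 0.0205 in stage 1, 0.204 ± 0.0198 in stage 2, 0.198 ± 0.0233 in stage 3 and 0.212 ± 0.0213 in stage 4 (SD, n = 3). For bni-1 the ratio dropped from 0.643 ± 0.0743 in stage 1 to 0.174 ± 0.0132 in stage 2 and then stayed between 0.157 and 0.175 (exact permutation p = 0.00610, adjusted 0.0122). The ratios of spa-2 (exact permutation p = 0.000390), bud-6 (0.000519), myo-1 (0.00695) and myo-2 (0.0181) also differed, with adjusted values between 0.00182 and 0.0253, and all were highest in stage 1. Ratios of other genes to act were not tested. From stage 1 to stage 2 the log2 change of act was above that of 90.9% of all genes tested. Most genes thus fell relative to act at this step, and such a fall is not particular to these 5. For tpm-1 the ratio was 0.401 ± 0.0879 in stage 1 and 0.325 ± 0.0443 in stage 2, a difference within the spread of its libraries.

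The dip of spa-2 and bud-6 was then examined in the ratios among spa-2, bud-6, bni-1 and act only, stage 3 against stages 2 and 4 together. These 6 ratios were chosen after the low stage 3 levels of spa-2 and bud-6 were seen in the same counts. Their p-values are therefore no separate support for the dip. How many of all genes were likewise lower relative to act in stage 3 was not counted. With 3 libraries against 6 the smallest exact permutation p is 0.0119. Relative to act, bud-6 was 1.46-fold lower in stage 3 (exact permutation p = 0.0119, adjusted 0.0238) and spa-2 1.39-fold lower (p = 0.0119, adjusted 0.0238), both without overlap. Relative to bni-1, bud-6 was 1.31-fold lower (exact permutation p = 0.0119, adjusted 0.0238), with ratios of 0.512 to 0.566 in stage 3 and 0.668 to 0.714 in the other 6 libraries.

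For spa-2 relative to bni-1 the libraries overlapped. The ratio was 0.302, 0.407 and 0.289 in replicates 1 to 3 of stage 3 and between 0.401 and 0.433 in the other 6 libraries (exact permutation p = 0.0357, adjusted 0.0536), and the high value belongs to the library rich in ribosomal RNA. Without that library the ratio was 1.40-fold lower in stage 3 and did not overlap (exact permutation p = 0.0357, the smallest possible with 2 libraries against 6). The ratio of bni-1 to act (exact permutation p = 0.119) and that of spa-2 to bud-6 (p = 0.5) did not pass. For the last pair, stage 3 differed from the other stages by 0.07 on the log2 scale, and by -0.04 without stage 3 replicate 2.

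**Figure D3:**
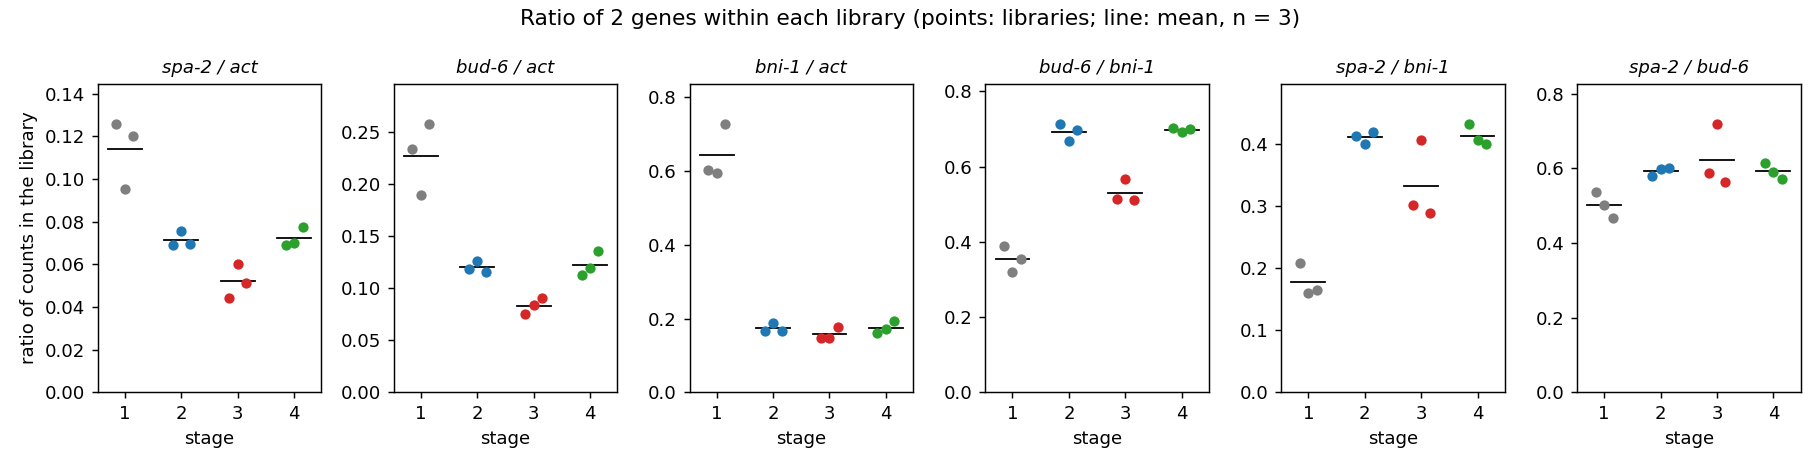
Ratio of the counts of 2 genes within each library on the y axis for the 4 stages on the x axis, with points for libraries and lines for the mean of 3. The ratio of bud-6 to bni-1 is at most 0.566 in stage 3 and at least 0.668 in stages 2 and 4, and the ratio of bni-1 to act falls from a mean of 0.643 in stage 1 to 0.174 in stage 2.

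Levels of different genes were compared per length, as CPM per kb of the annotated gene span, which includes introns. In stage 1 the order was act (184 ± 34.4), tpm-1 (113 ± 5.12), bni-1 (40.8 ± 7.31), fim (29.6 ± 2.53), bud-6 (23.2 ± 2.49), myo-1 (14.8 ± 1.97), spa-2 (10.3 ± 0.459) and myo-2 (10.2 ± 1.33; SD, n = 3). In stage 2 it was act (559.8 ± 56.4), tpm-1 (285 ± 11.4), fim (88.8 ± 0.807), bud-6 (37.9 ± 2.16), bni-1 (33.6 ± 1.37), myo-1 (25.4 ± 0.546), spa-2 (19.97 ± 1.21) and myo-2 (16.7 ± 0.413). The formin transcript thus moved from the third place, above fim and bud-6, to the fifth. Neighbours whose libraries overlapped were spa-2 and myo-2 in stage 1, and none in stage 2. In stage 3, bni-1 (29.5 ± 4.41) overlapped with bud-6 (25.3 ± 2.45) and bud-6 with myo-1 (21.7 ± 1.42), whereas spa-2 (13.9 ± 0.439) lay below myo-2 (15.8 ± 0.800). In stage 4 the order was that of stage 2, without overlap. Among 8329 genes with a length, act lay at the percentile 95.4 in stage 1 and 98.5 in stage 2, and spa-2 at 52.1 and 67.9.

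The locations refer to the NC12 assembly. On chromosome V lie act (5086770 to 5089247), bni-1 (4768952 to 4776086) and tpm-1 (3226250 to 3227820). On chromosome I lie spa-2 (4609229 to 4614172), myo-1 (1246770 to 1251361) and myo-2 (8034040 to 8042305). The fim gene is on chromosome VI (2369411 to 2372582) and bud-6 on chromosome II (3556059 to 3560450). The RefSeq table lists 2 transcripts each for act, tpm-1 and spa-2, which the gene counts do not separate.

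Other genes of the same machinery were taken by symbol from the RefSeq table, of which 11 are described here, all tested. From stage 1 to stage 2, 9 rose and 0 fell (39.4% and 37.9% of all genes tested), with a median log2 change of 0.72 against 0.01 over all genes. The 3 genes of actin turnover all rose. They encode ARP2 and ARP3, subunits of the complex that nucleates branched filaments, and coronin, which binds actin patches. The arp2 transcript went from 49.0 ± 0.197 to 142 ± 1.31 CPM (SD, n = 3; log2 change of 1.53, edgeR adjusted p = 8.11e-12), that of coronin (crn) from 90.7 ± 13.1 to 233 ± 8.82 CPM (1.36, adjusted p = 5.14e-07), and arp-3 rose 2.46-fold (adjusted p = 3.08e-10). These genes were thus 2.46-fold to 2.89-fold higher in stage 2, and act, tpm-1 and fim 2.52-fold to 3.05-fold. The calmodulin gene cmd, whose product serves as a light chain of unconventional myosins in other fungi, rose from 128 ± 11.1 to 311 ± 16.6 CPM (1.29, adjusted p = 2.46e-09).

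Of 7 genes for polarity GTPases, their regulators and landmark proteins, 5 rose from stage 1 to stage 2, against 39.4% of all genes, and 2 did not pass. The largest rises were those of krev-1, a Ras-type GTPase, with 37.3 ± 1.52 CPM before and 75.2 ± 4.81 CPM after (SD, n = 3; log2 change of 1.01, edgeR adjusted p = 3.86e-09), and bud4, a homologue of a landmark protein of yeast, with 59.8 ± 7.55 and 98.6 ± 3.69 CPM (0.72, adjusted p = 0.000160). For cdc42, the central GTPase of polarity, the change was 0.40 (adjusted p = 5.30e-06) and for rac-1 0.32 (adjusted p = 0.000981). The genes of the exchange factor CDC24 and of BUD3 gave -0.03 and -0.08 and did not pass. The lists were matched by symbol, and cdc42, rac-1, cdc24, bud3 and arp-3 were singled out for the text after their values were seen.

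**Figure D4:**
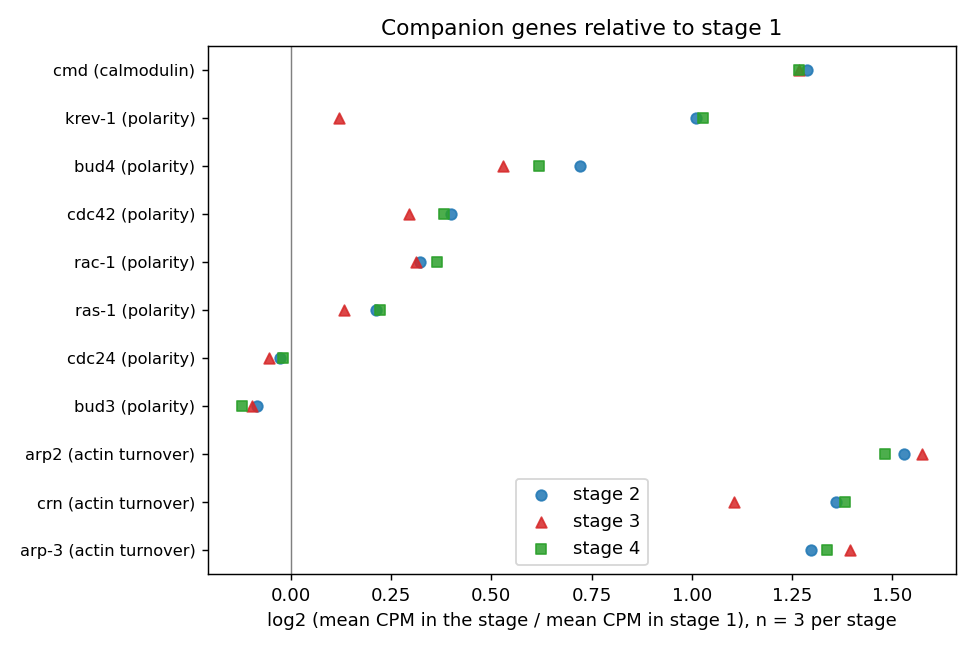
Log2 ratio of the mean CPM in stages 2, 3 and 4 to that in stage 1 on the x axis for the 11 companion genes on the y axis, each mean over 3 libraries. The 3 genes of actin turnover lie above 1 in all stages, and krev-1 stands near 1.01 in stage 2 and near 0.12 in stage 3.

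A fall to stage 3 followed by a rise was called for 1 of these 11 genes, krev-1, against 16% of all genes. Its level was 75.2 ± 4.81 CPM at polar growth, 40.6 ± 1.71 CPM at germ tube extension (log2 change of -0.89, edgeR adjusted p = 2.85e-07) and 76.2 ± 3.33 CPM at branching (0.91, adjusted p = 2.37e-07). The other 10 did not pass at either step. Of these, crn (-0.26 and 0.28, edgeR adjusted p of 0.147 and 0.116) and cdc42 (-0.11 and 0.09, adjusted p of 0.110 and 0.182) had stage 3 libraries below all those of stages 2 and 4, as did krev-1. Over all genes, stage 3 libraries lay below all those of stage 2 for 26.6% and below all those of stage 4 for 25.4%. With DESeq2, 2 in place of 1 of the polarity genes passed from stage 2 to stage 3.

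The stage profile of each of the 8 genes was compared with 5770 others at a mean of at least 10 CPM, by the root mean square difference of the 4 stage means of log2 CPM after removing each gene's mean. The nearest genes carry mostly no symbol. For act they were NCU02725 and NCU06008 (0.0171 and 0.0214), for fim NCU01674 and NCU09709, for tpm-1 NCU08379 and NCU04600 and for bni-1 NCU08633 and NCU06429 (0.00672 and 0.00735). For spa-2 they were pms-1 (0.0140) and NCU03862, for bud-6 NCU02175 and mus-9 (0.0298 and 0.0307), for myo-1 NCU01777 (0.00460) and NCU05856 and for myo-2 pex10 (0.00907) and NCU00493. Among the 8 genes themselves the closest pair was act and fim (0.0385), followed by myo-1 and myo-2 (0.0652), tpm-1 and fim (0.0987) and spa-2 and bud-6 (0.116). The most distant pair was act and bni-1 (0.836).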

How the data were processed

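The authors trimmed the paired reads, aligned them with HISAT2 2.1.0 to the OR74A genome, with the strand set, and counted per gene with StringTie 1.3.3b (versions from the submitters' processing notes) and the Python script supplied with it. The deposited table holds estimated counts (expected counts), whole numbers that the script derives from coverage and a read length set by the user. That setting is not given in the sources used here, and the scale of the counts depends on it. A table deposited by the authors with their own stage ratios, interval widths and likelihoods from LOX was not used.

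All 12 libraries were fitted with edgeR 4.0.16 (R 4.3.3, limma 3.58.1) after filterByExpr (minimum count 10, minimum total 15) and TMM scaling, with 1 coefficient per stage and quasi-likelihood F tests. P-values were adjusted by Benjamini-Hochberg over all 8330 genes tested (threshold 0.05). Standard errors are the log2 change over the square root of F. No pair of libraries of a stage agreed within counting noise. Ratios were tested two-sided in Python 3.11.15 with numpy 2.4.6. Names and spans came from RefSeq (NC12), which matched 10590 IDs. It gives no product names, so companions were matched by symbol or synonym, with cmd added for calmodulin and some matches not reported here, and levels were divided by the gene span in place of a transcript length. For likeness 0.5 was added to CPM.

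The genes and lists were chosen with earlier results of these data known. Named are the 8 genes, the 2 companions per list with the largest called rise and fall without overlap, at 10 CPM or more, and the 2 nearest profiles per gene. Tests were tried on simulated data. Alternatives were DESeq2 1.42.0, its size factors, library totals, ribosomal RNA genes left out, no filter, the replicate number as a block, only the stages compared, and each library left out.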

Additional observations from a re-analysis of the deposited data

How the results depend on the processing

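Of 26 called changes of the 8 genes, 25 kept direction and call under all 19 alternatives, the exception being bni-1 from stage 1 to stage 4. With single libraries left out, the number of the 8 genes called from stage 3 to stage 4 ranged from 2 to 4 (4 without stage 1 replicate 1). Changes that turned sign were all uncalled. From stage 2 to stage 4, library totals gave 0.0023 (act), 0.0172 (bni-1), 0.0289 (bud-6), 0.0173 (myo-1) and 0.0224 (spa-2). With single libraries left out that contrast ranged from -0.109 to 0.0404 (act), -0.0430 to 0.0193 (bni-1), -0.0530 to 0.0350 (bud-6), -0.0211 to 0.0580 (fim), -0.0694 to 0.00779 (myo-2), -0.0515 to 0.0412 (spa-2) and -0.0249 to 0.126 (tpm-1). For act the step into stage 3 ranged from -0.163 to 0.0323 and the step out of it from -0.0655 to 0.130. The log2 ratio of spa-2 to bud-6 in stage 3 against stages 2 and 4 ranged from -0.0417 to 0.133. For spa-2 to bni-1 it ranged from -0.48 to -0.23 with exact permutation p of 0.0357 to 0.107.

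Of the polarity genes, library totals called 1 between stages 1 and 3 (3 with TMM), and DESeq2 called 2 at the step into stage 3 (1 with edgeR). Leaving out single libraries gave 0 to 1 actin turnover genes from stage 3 to stage 4, 1 to 2 polarity genes at the step into stage 3 (2 without stage 1 replicate 1, stage 4 replicate 2 or stage 4 replicate 3), and 3 to 6 between stages 1 and 3 (6 without stage 1 replicate 1). Over all genes library totals called 1499 in place of 3247 at the step into stage 3 (41.7% of them higher, against 53.3%) and 1704 in place of 3250 at the step out of it (63.4% against 46.6%), and moved the median of all genes to -0.10 and 0.13. The causes were not tested. In the fit with a replicate block, 7, 2, 2 and 8 of the 8 genes were called from stage 1 to 2, 2 to 3, 3 to 4 and 1 to 4, and 0 of their calls changed. No pairing of the libraries by number was seen, which does not exclude one. Of 18 same-numbered pairs, 6 had deviations correlated above 0.1, and 5 of 12 libraries correlated best with their own number. The median correlation was 0.040 for same-numbered pairs and 0.029 for other pairs.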
